A study of Rattus norvegicus with 40 samples.

Results

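Metallothioneins and the main genes of iron and copper handling were followed in rat liver after 4 days of oral GW7647. The 10 genes were Mt1, Mt2A, Hamp, Tf, Tfrc, Fth1, Ftl1, Slc40a1, Slc39a14 and Cp, taken by their symbols in the platform annotation, out of 13438 genes tested. They had 18 probe sets, each a group of short probes that gives 1 value per array. Of these, 13 were annotated to 1 gene and covered 7 of the 10 genes. The other 5 were annotated to several genes and are reported as such. They were a second probe set for Mt1 that also names Ttr, both probe sets for Tf, which also name Srprb, the probe set for Fth1, which also names a pseudogene, and the probe set for Ftl1, which also names 7 Ftl1 copies or loci.

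GW7647 is an agonist of PPARα, a nuclear receptor that turns on fatty acid oxidation genes in liver. Adult male Sprague Dawley SD:CD rats were gavaged each day for 4 days, 10 with the vehicle alone and 10 with each dose of the compound, which was 0.1 mg/kg in the low, 1 mg/kg in the middle and 10 mg/kg in the high group. The liver was collected 24 h after the final dose, and total RNA of each was measured on 1 of 40 Affymetrix 3′ arrays. The tissue was whole liver, so fewer cells of a type and less RNA per cell cannot be told apart, and arrays measure RNA only, not metal or protein.

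Values are on a log2 scale as deposited, so a difference of 1 is a doubling of signal. The whole scale moved with dose: the median log2 change over all genes was -0.03 at 0.1, 0.16 at 1 and 0.26 at 10 mg/kg. Each comparison was therefore fitted to the deposited values and again after quantile normalization, which gives all arrays 1 common distribution. Below, "rose" and "fell" are used only where a gene passed an adjusted p of 0.05 in the same direction on both scales. Spiked poly-A controls, added to the RNA before labelling, also moved with dose, from a mean log2 value of 5.57 ± 0.37 (SD, n = 10) in vehicle rats to 6.56 ± 0.38 at 10 mg/kg. The 3′ minus 5′ signal of actin, a measure of RNA integrity, was 2.78 ± 0.24 and 3.22 ± 0.41 in the same groups. Spike signal was also uneven among the middle-dose rats. It ran from 5.25 to 5.70 on the arrays of replicates 1 to 4 and from 6.34 to 7.39 on those of replicates 5 to 10. A setting used below keeps only replicates 1 to 4 of that dose. The part of these shifts and of this split in the results was not tested beyond the settings given below. Markers of hepatocytes were bright. The mean deposited log2 value over 8 of them was 12.03 ± 0.05 in vehicle rats and 12.03 ± 0.05 at 10 mg/kg. Their median change at 10 mg/kg was -0.02 as deposited, beside 0.26 for all genes, and -0.17 after quantile normalization, beside -0.02. Of these 8, 0 rose and 2 fell, where 20.4% of all genes rose and 7.69% fell.

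Metallothioneins are small cysteine-rich proteins that bind zinc and copper, and liver is a main site of their synthesis. Their transcription is switched on by zinc through MTF1, which binds metal response elements, and also by glucocorticoids and inflammatory signals. Liver also sets the iron supply of the body: hepatocytes store iron in ferritin and secrete transferrin, ceruloplasmin and the hormone hepcidin. Hepcidin removes the iron exporter ferroportin from the surface of macrophages and gut cells, so more hepcidin means less iron released to blood.

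The promoters of Mt1, Mt2A and Hamp are shown because the known inputs of these genes can be read in them and because Mt2A and Hamp fell in comparisons given below. Promoter sequences came from a RefSeq table of the GRCr8 assembly, which held 7 of the 10 genes; Fth1, Ftl1 and Slc39a14 had no entry. The sequences below are the 250 bases before the annotated start, all on the minus strand, at chr19:10832976-10833225 for Mt1, chr19:10838709-10838958 for Mt2A and chr1:95300272-95300521 for Hamp. Capitals in Mt1 and Mt2A mark the core of the metal response element, TGCACNC or TGCGCNC, on either strand. Capitals in Hamp mark GGCGCC, the core bound by the SMAD proteins of the BMP pathway, and TTCNNNGAA, the palindrome bound by STAT factors.
Mt1: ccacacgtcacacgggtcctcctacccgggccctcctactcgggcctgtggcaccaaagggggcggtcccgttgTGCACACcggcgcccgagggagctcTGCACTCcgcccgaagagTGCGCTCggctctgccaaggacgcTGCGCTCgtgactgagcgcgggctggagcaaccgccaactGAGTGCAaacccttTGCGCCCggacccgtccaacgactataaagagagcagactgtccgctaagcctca
Mt2A: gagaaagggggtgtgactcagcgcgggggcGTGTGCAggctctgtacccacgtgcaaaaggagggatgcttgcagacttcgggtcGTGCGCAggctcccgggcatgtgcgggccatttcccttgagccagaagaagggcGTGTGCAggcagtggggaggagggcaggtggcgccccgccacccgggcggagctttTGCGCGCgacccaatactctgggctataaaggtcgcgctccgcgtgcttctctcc
Hamp: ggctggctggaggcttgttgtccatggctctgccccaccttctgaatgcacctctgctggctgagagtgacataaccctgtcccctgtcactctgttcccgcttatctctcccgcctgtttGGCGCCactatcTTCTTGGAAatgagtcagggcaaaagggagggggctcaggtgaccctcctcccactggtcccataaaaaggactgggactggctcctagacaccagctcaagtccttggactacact

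Mt1 held 6 metal response cores and Mt2A held 4 in the window from 250 bases before to 50 bases after the start. Of 33469 rat promoters of that length, 24.2% held at least 1 and 0.439% held 4 or more. Tfrc had 3 such matches, some of which overlap, and Tf had 2, while Hamp, Slc40a1 and Cp had none. The BMP core was found in 11% of promoters, and besides Hamp it was in those of Mt1, Mt2A and Tfrc. The STAT palindrome was found in 8.87% of promoters and in Hamp alone among the 7. The antioxidant response core TGACNNNGC, on either strand, was in 12.1% of promoters and had 1 match each in Mt1 and Mt2A. The perfect direct repeat 1, the motif bound by PPARα with RXR, was searched on both strands and was in 0.0538% of promoters and in none of the 7 windows. A match describes the letters of a window and is not evidence of binding.

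Mt2A RNA fell at the highest dose, and the probe set shared by Mt1 and Ttr fell with it. Mt2A encodes the second of the liver's main metallothioneins. Its log2 value ran from 7.62 to 9.92 (median 8.90) in vehicle rats, from 5.94 to 9.93 (median 8.44) at 0.1 mg/kg, from 6.88 to 9.91 (median 8.25) at 1 mg/kg and from 5.16 to 7.62 (median 6.49) at 10 mg/kg. All 10 rats at 10 mg/kg lay below the lowest vehicle rat, the highest of them by less than 0.01, while the 3 other groups overlapped broadly. Of all probe sets, 0.657% had all 10 rats at that dose below all vehicle rats. The change at 10 mg/kg was -2.11 (SE 0.40), which is 4.32-fold lower, with an adjusted p of 2.43e-05. After quantile normalization it was -2.42, with an adjusted p of 5.69e-06. From 1 to 10 mg/kg Mt2A fell by 1.73 (SE 0.40, adjusted p = 0.0012). That call was lost when quantile normalization was combined with replicates 1 to 4 alone of the 1 mg/kg rats (-1.30, adjusted p = 0.101). At 0.1 and 1 mg/kg the changes of -0.53 and -0.38 did not pass, with adjusted p-values of 1.00 and 0.469. In all 4 groups the 10 rats varied widely, with SDs of 0.63, 1.26, 1.04 and 0.76 in order of dose.

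Mt1 has a dim probe set of its own and a bright one shared with Ttr, which encodes the plasma carrier transthyretin. The dim probe set ran from 4.21 to 5.64 (median 4.87) in vehicle rats, 3.60 to 5.54 (median 4.70) at 0.1 mg/kg, 3.70 to 6.03 (median 5.01) at 1 mg/kg and 3.07 to 5.58 (median 4.69) at 10 mg/kg. The groups overlapped, and the change at 10 mg/kg did not pass on either scale. It was -0.35 (SE 0.27, adjusted p = 0.271) as deposited and -0.61 (adjusted p = 0.0749) after quantile normalization. The 95% confidence interval of the deposited change, from -0.90 to 0.21, does not show that Mt1 was level. The shared probe set ran from 10.93 to 11.89 (median 11.44) in vehicle rats, 9.50 to 12.13 (median 11.02) at 0.1 mg/kg, 9.79 to 12.02 (median 11.02) at 1 mg/kg and 8.27 to 10.96 (median 10.31) at 10 mg/kg. Of the rats at 10 mg/kg, 9 of 10 lay below the lowest vehicle rat. The shared probe set fell by 1.33 (SE 0.31, 2.51-fold lower, adjusted p = 0.00027), or by 1.59 after quantile normalization, and fell by 0.93 from 1 to 10 mg/kg (adjusted p = 0.0159). The probe set annotated to Ttr alone was at 12.81 ± 0.05 in vehicle rats and 12.80 ± 0.08 at 10 mg/kg, a change of -0.02 (SE 0.04, adjusted p = 0.674). After quantile normalization the Ttr change was -0.12 and passed on that scale (adjusted p = 0.0157).

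**Figure D1:**
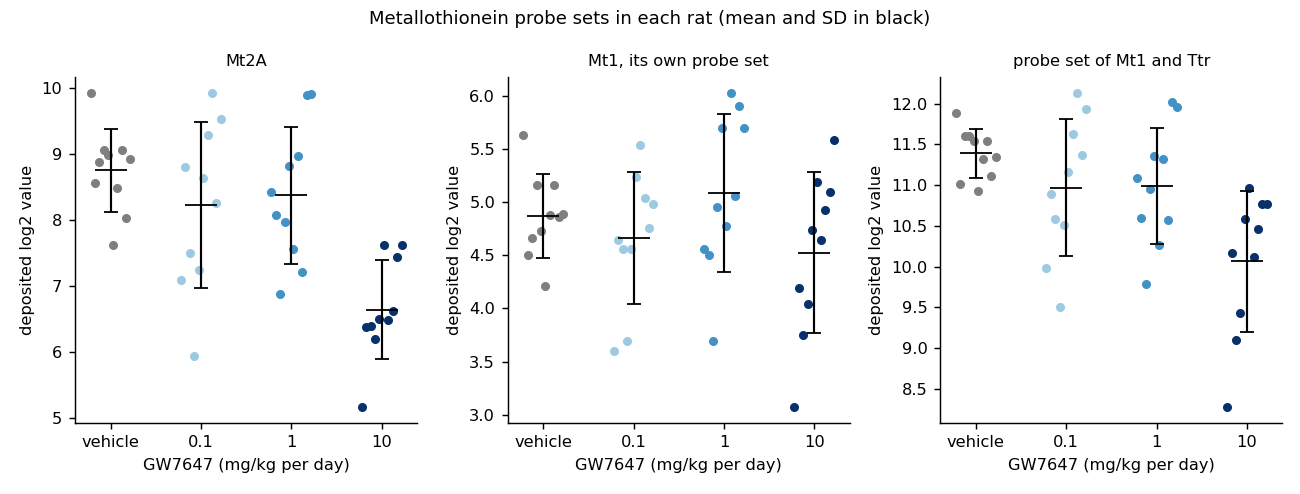
Deposited log2 values of Mt2A, of the probe set of Mt1 alone and of the probe set of Mt1 and Ttr in each of 40 rats, by daily dose of GW7647, with points for rats and black bars for the mean and SD of 10 rats. All 10 rats at 10 mg/kg lie below every vehicle rat for Mt2A, with means of 6.64 and 8.75, while the groups overlap for Mt1 alone.

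Of the iron genes, Tfrc fell at 10 mg/kg. Tfrc encodes transferrin receptor 1, which takes up transferrin-bound iron and whose RNA is broken down when iron is plentiful. Its brighter probe set ran from 7.13 to 7.95 (median 7.57) in vehicle rats, 6.50 to 8.07 (median 7.73) at 0.1 mg/kg, 6.50 to 7.91 (median 7.27) at 1 mg/kg and 6.79 to 7.50 (median 7.12) at 10 mg/kg. At 10 mg/kg 5 of 10 rats lay below the lowest vehicle rat and none above the highest, so the groups overlapped. The change was -0.44 (SE 0.16), 1.35-fold lower, with an adjusted p of 0.0179, and -0.76 after quantile normalization (adjusted p = 9.34e-05). At 1 mg/kg the deposited change of -0.31 did not pass (adjusted p = 0.119), while the quantile-normalized change of -0.56 did (adjusted p = 0.00687). The dim second probe set also fell at 10 mg/kg, from 3.90 ± 0.31 to 3.25 ± 0.57, a change of -0.66 (SE 0.20, adjusted p = 0.0049). In that probe set 7 of 10 rats were below the lowest vehicle rat and 1 was above the highest. Proliferating cells also use Tfrc, and 5 of 8 proliferation markers rose at 10 mg/kg while none fell, beside 20.4% and 7.69% of all genes. The mean log2 value of these markers per rat ranged from 3.71 to 4.99 in vehicle rats and from 4.93 to 6.24 at 10 mg/kg. Their part in the Tfrc values was not tested.

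Hamp, the gene of hepcidin, was lower at 10 mg/kg than at 1 mg/kg. Its values ran from 10.14 to 11.67 (median 11.13) in vehicle rats, 10.23 to 11.70 (median 10.82) at 0.1 mg/kg, 10.45 to 11.60 (median 11.35) at 1 mg/kg and 9.90 to 11.29 (median 10.85) at 10 mg/kg. All 4 groups overlapped, and 3 of 10 rats at 10 mg/kg lay below the lowest rat at 1 mg/kg. From 1 to 10 mg/kg Hamp fell by 0.53 (SE 0.19, 1.44-fold lower, adjusted p = 0.0317), and by 0.63 after quantile normalization (adjusted p = 0.0138). That call was lost when any 1 of 7 rats was left out (replicates 1, 6, 7 and 9 at 1 mg/kg and 3, 4 and 8 at 10 mg/kg), with changes then from -0.50 to -0.44 and adjusted p-values from 0.0516 to 0.0745. It was also lost with hybridisation controls (-0.59, adjusted p = 0.056) and when quantile normalization was combined with replicates 1 to 4 alone of the 1 mg/kg rats (-0.67, 0.0873). Against vehicle, the change at 10 mg/kg was -0.41 (SE 0.19), with an adjusted p of 0.0571 as deposited and 0.00292 once quantile-normalized. It passed on the deposited scale without vehicle replicate 8 or 10 or 10 mg/kg replicate 1, 2, 6, 7 or 10, at -0.52 to -0.44 and adjusted p-values from 0.0145 to 0.0488, and with a replicate block (0.0145). It passed as well with array weights (-0.44, adjusted p = 0.0297), a common median (-0.65, 0.00456), hybridisation controls (-0.64, 0.0121) and a poly-A covariate after quantile normalization (-0.81, 0.00677).

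Slc40a1 encodes ferroportin, the only known cellular iron exporter, and has 3 probe sets, none of which passed on both scales at any dose against vehicle. The brightest ran from 7.60 to 8.10 (median 7.91) in vehicle rats, 7.82 to 8.19 (median 7.98) at 0.1 mg/kg, 7.82 to 8.53 (median 8.08) at 1 mg/kg and 7.42 to 8.49 (median 7.95) at 10 mg/kg. The spread widened at 10 mg/kg, with an SD of 0.33 against 0.15 in vehicle rats, and 4 rats lay above and 1 below the vehicle range. The change at 10 mg/kg was 0.07 (SE 0.10, adjusted p = 0.550) as deposited and -0.24 (adjusted p = 0.0322) after quantile normalization, so its direction depends on the scale. At 1 mg/kg the deposited change was 0.21 (adjusted p = 0.0708). It passed only without 1 mg/kg replicate 2 (0.24, adjusted p = 0.0414) or with only the vehicle and 1 mg/kg rats in the fit (adjusted p = 0.0335). After quantile normalization the change at 1 mg/kg was -0.03 (adjusted p = 0.831). On that scale the dimmest probe set passed as lower at 1 mg/kg (-0.38, adjusted p = 0.0339), and the third did not pass (-0.13, 0.555). The other probe sets changed by -0.22 and -0.20 at 10 mg/kg, and did not pass (adjusted p = 0.156 and 0.221). Their quantile-normalized changes of -0.54 and -0.46 passed (adjusted p = 0.002 and 0.00402), so all 3 probe sets passed as lower on that scale and none passed on the deposited scale. Macrophages also express ferroportin. Of 8 measured markers of Kupffer cells, the liver's resident macrophages, 7 fell at 10 mg/kg, where 7.69% of all genes fell. Their mean log2 value per rat ranged from 6.80 to 7.60 in vehicle rats and from 5.97 to 7.10 at 10 mg/kg. The brightest marker and the dimmest were picked after their values were seen: Clec4f fell from 10.14 ± 0.27 to 9.28 ± 0.34, and Cd163 from 4.56 ± 0.29 to 3.53 ± 0.24. The part of these cells in the Slc40a1 values was not tested.

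Both ferritin probe sets were higher in every rat at 1 and 10 mg/kg than in any vehicle rat on the deposited scale, where the median change of all genes was 0.16 and 0.26. Of all probe sets, 3.39% had all 10 rats at 1 mg/kg above all vehicle rats, and 12.8% had all 10 rats at 10 mg/kg above them. Ferritin is the iron storage shell, built from heavy (Fth1) and light (Ftl1) chains. The probe set of Fth1 and Fth1-ps5 ran from 11.99 to 12.19 (median 12.11) in vehicle rats, 12.01 to 12.18 (median 12.09) at 0.1 mg/kg, 12.19 to 12.46 (median 12.34) at 1 mg/kg and 12.29 to 12.55 (median 12.41) at 10 mg/kg. All 10 rats at 1 mg/kg and all 10 at 10 mg/kg lay above the highest vehicle rat. By 10 mg/kg this probe set rose by 0.31 (SE 0.04, 1.24-fold, adjusted p = 1.55e-08), or by 0.11 after quantile normalization (adjusted p = 0.0361). The call was lost under 3 other settings: a common median gave 0.07 (adjusted p = 0.156), scaling to the hybridisation controls 0.08 (0.586), and a poly-A covariate after quantile normalization 0.09 (0.210).

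The probe set of Ftl1 and its copies ran from 10.79 to 11.04 (median 10.92) in vehicle rats, 10.59 to 11.09 (median 10.87) at 0.1 mg/kg, 11.10 to 11.41 (median 11.23) at 1 mg/kg and 11.19 to 11.47 (median 11.32) at 10 mg/kg. Every rat at 1 and 10 mg/kg again lay above all vehicle rats. The deposited changes at the middle and high dose were 0.32 and 0.40 (SE 0.05 each, adjusted p = 1.04e-05 and 3.05e-08). After quantile normalization they were 0.12 and 0.10 and did not pass (adjusted p = 0.126 and 0.154). From 0.1 to 1 mg/kg this probe set rose on both scales, by 0.39 (adjusted p = 2.83e-07) and 0.19 (adjusted p = 0.0131).

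**Figure D2:**
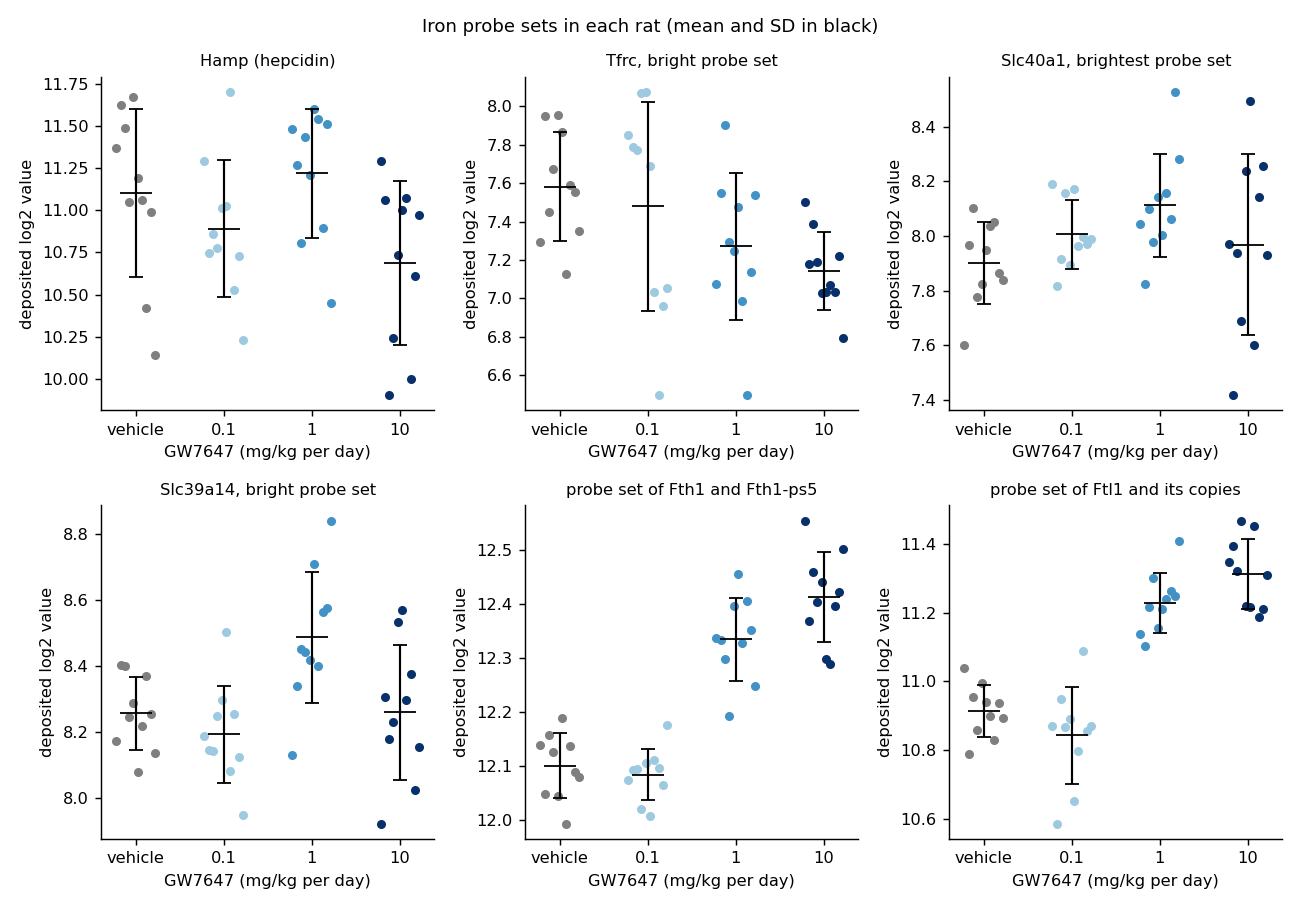
Deposited log2 values of 6 iron probe sets in each of 40 rats by daily dose of GW7647, with points for rats and black bars for the mean and SD of 10 rats; the vertical axes differ and do not start at 0. The ferritin probe sets at 1 and 10 mg/kg lie above all vehicle rats, Tfrc is lower at 10 mg/kg (7.14 against 7.58), and the other groups overlap.

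Transferrin, the iron carrier of plasma, could be read only through probe sets annotated to both Tf and Srprb, a subunit of the signal recognition particle receptor. The bright one was near the top of the scale and level, at 13.15 ± 0.08 in vehicle rats and, in order of dose, 13.18 ± 0.05, 13.20 ± 0.08 and 13.15 ± 0.08 in treated rats. Its change at 10 mg/kg was 0.00 (SE 0.04, 95% confidence interval -0.08 to 0.09, adjusted p = 0.979) as deposited and -0.11 (adjusted p = 0.00714) after quantile normalization. Quantile normalization sets values by rank, and most rats were tied on that scale, at 13.2084 with vehicle and 13.0985 at 10 mg/kg. The -0.11 thus records a shift of rank near the top of the scale. The dim one changed by 0.75 (SE 0.25, adjusted p = 0.00866) as deposited and by 0.44 (adjusted p = 0.162) after quantile normalization, so it passed on 1 scale only. Its values overlapped, from 4.82 to 6.74 in vehicle rats and from 5.24 to 7.54 at 10 mg/kg. Of 3 probe sets of Srprb alone, 1 fell at 10 mg/kg, from 8.14 ± 0.19 to 7.62 ± 0.25.

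Slc39a14, also known as ZIP14, carries zinc and iron not bound to transferrin into hepatocytes. Its brighter probe set ran from 8.08 to 8.40 (median 8.25) in vehicle rats, 7.95 to 8.50 (median 8.17) at 0.1 mg/kg, 8.13 to 8.84 (median 8.45) at 1 mg/kg and 7.92 to 8.57 (median 8.26) at 10 mg/kg. At 1 mg/kg 7 of 10 rats were above the vehicle range, and at 10 mg/kg the range spanned that of vehicle. From 1 to 10 mg/kg Slc39a14 fell by 0.23 (SE 0.08, 1.17-fold lower, adjusted p = 0.0223), or by 0.32 after quantile normalization (adjusted p = 0.00367). The call was lost without 1 mg/kg replicate 10 (-0.19, adjusted p = 0.0564) or 10 mg/kg replicate 1 (-0.19, 0.0552). It was also lost with a common median (-0.20, 0.0857), hybridisation controls (-0.29, 0.0632), the mean of both probe sets (-0.13, 0.300), a fit of those 2 groups alone (adjusted p = 0.0582), or, after quantile normalization, replicates 1 to 4 alone of the 1 mg/kg rats (-0.18, 0.275). Against vehicle, the change of 0.23 at 1 mg/kg passed as deposited (adjusted p = 0.0153) but was -0.01 (adjusted p = 0.946) after quantile normalization. At 10 mg/kg it was 0.00 as deposited and -0.33 (adjusted p = 0.000866) after quantile normalization. The dimmer probe set changed by -0.18 and -0.21 at the middle and high dose and did not pass as deposited (adjusted p = 0.359 and 0.197). After quantile normalization its changes of -0.45 and -0.49 passed (adjusted p = 0.0206 and 0.00502).

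Cp encodes ceruloplasmin, the copper-carrying ferroxidase of plasma and an acute phase protein. Its brightest probe set ran from 10.12 to 11.42 (median 10.53) in vehicle rats, 10.27 to 11.17 (median 10.54) at 0.1 mg/kg, 9.42 to 11.33 (median 10.78) at 1 mg/kg and 10.00 to 11.31 (median 10.43) at 10 mg/kg. All groups overlapped, and the change at 10 mg/kg was -0.10 (SE 0.19, 95% confidence interval -0.47 to 0.28, adjusted p = 0.662). The 3 probe sets of Cp did not move together. The dimmest changed by 0.40 and 0.58 at the middle and high dose (adjusted p = 0.0333 and 0.00102), but by 0.15 and 0.26 after quantile normalization (0.518 and 0.169). The third changed by -0.24 at 10 mg/kg as deposited (adjusted p = 0.319). After quantile normalization the third changed by -0.53 and passed as lower on that scale (adjusted p = 0.0400). The brightest was at -0.37 on that scale and did not pass (adjusted p = 0.104).

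At the lowest dose no member passed the test. Of the 7 genes with their own probe set, 0 rose and 0 fell at 0.1 mg/kg in limma on both scales, where 0.0819% of all genes rose and 0.00744% fell, and 0 of the 7 had an unadjusted p under 0.05. At 1 mg/kg 0 rose and 0 fell, against 11.1% and 3.37% of all genes, with 2 of 7 at an unadjusted p under 0.05. At 10 mg/kg 0 rose and 2 fell, Mt2A and Tfrc, against 20.4% and 7.69%. From 0.1 to 1 mg/kg 0 of 7 rose or fell, against 10.5% and 2.95%, with 1 at an unadjusted p under 0.05. From 1 to 10 mg/kg 0 rose and 3 fell, Mt2A, Hamp and Slc39a14, against 8.55% and 5.98%. The F test over the 3 dose contrasts passed on both scales for 2 of 7, Mt2A (adjusted p = 8.41e-05) and Slc39a14 (adjusted p = 0.00487), against 34.2% of all genes. The median log2 change of the 7 genes at 10 mg/kg was -0.35, beside 0.26 for all genes, and after quantile normalization -0.61 beside -0.02.

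Counted over all 18 probe sets, 0 rose and 0 fell at 0.1 mg/kg (0.0387% and 0.00322% of all probe sets) and at 1 mg/kg (9.13% up and 3.03% down). The highest dose against vehicle gave 1 that rose and 4 that fell (18.2% and 5.86% of all). These were the Fth1 probe set upward, and downward Mt2A, the probe set of Mt1 and Ttr, and both of Tfrc. From 0.1 to 1 mg/kg 1 rose, that of Ftl1 and its copies, and 0 fell (9.77% and 2.71%). From 1 to 10 mg/kg 0 rose and 4 fell, those of Mt2A, Mt1 with Ttr, Hamp and Slc39a14 (8.18% and 4.79%). With so few members, these counts describe the list and are not a test of it.

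**Figure D3:**
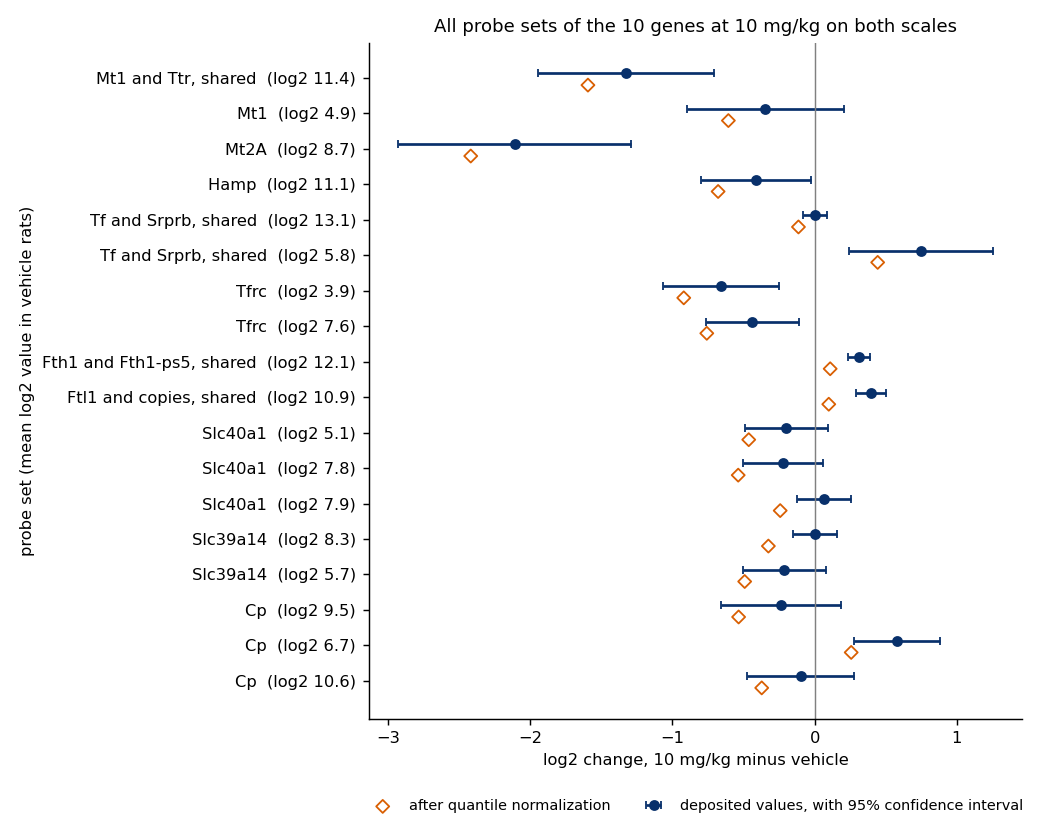
Log2 change at 10 mg/kg against vehicle of the 18 probe sets, with filled circles and 95% confidence intervals for deposited values and open diamonds for quantile-normalized values; labels give the mean log2 value in vehicle rats. Mt2A lies farthest from 0, at -2.11 and -2.42, and the diamonds lie to the left of the circles for all 18.

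Rats of 1 dose group differed from each other in metallothionein RNA, and did so in the same way for Mt1 and Mt2A. After each group's mean was taken from the quantile-normalized values, Mt1 and Mt2A correlated over 40 rats at r = 0.83 and rho = 0.84. The permutation p within groups was 1e-05, the smallest that 100000 permutations can give, or 0.000225 adjusted over 45 member pairs. Within the groups r was 0.81 in vehicle rats, 0.89 at 0.1, 0.79 at 1 and 0.92 at 10 mg/kg, and without the 2 rats farthest from the median it was 0.83. The probe set of Mt1 and Ttr followed both, with r = 0.90 to Mt1 and 0.90 to Mt2A (permutation p = 1e-05 each, adjusted over 3 relations 1.5e-05), while with Ttr it gave r = 0.08 and rho = -0.08 (permutation p = 0.681). That r differed between groups, at -0.01, -0.50, -0.25 and 0.61 in order of dose. Rats with more Mt1 had less Tfrc: r was -0.64 and rho -0.67 (permutation p = 1e-05, adjusted 0.000225), and -0.62 without the 2 farthest rats. Within groups that r was -0.49, -0.80, -0.48 and -0.91 in order of dose. Mt1 tended to be higher at later replicate numbers in treated rats, a split named after its values were seen. Its deposited values in replicates 1 to 5 and 6 to 10 ran from 3.60 to 4.64 and 4.76 to 5.54 at 0.1 mg/kg. They ran from 3.70 to 5.70 and 4.77 to 6.03 at 1 mg/kg, and from 3.07 to 4.74 and 4.64 to 5.58 at 10 mg/kg. In vehicle rats they ran from 4.51 to 5.64 and 4.21 to 5.16. Tfrc, in its brighter probe set, tended to be lower at later numbers. By the same split it ran from 7.77 to 8.07 and 6.50 to 7.69 at 0.1 mg/kg. It ran from 7.07 to 7.91 and 6.50 to 7.54 at 1 mg/kg, and from 7.03 to 7.50 and 6.79 to 7.22 at 10 mg/kg. In vehicle rats it ran from 7.29 to 7.95 and 7.13 to 7.86. The permutations treat rats of a group as exchangeable, which an order by replicate number would break. The part of replicate order in these correlations was not tested.

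Mt2A and Tfrc correlated at r = -0.51 and rho = -0.52, with an adjusted permutation p of 0.0655 for r after quantile normalization and 0.0339 on the deposited values. The probe set of Fth1 and Cp gave r = -0.45 and rho = -0.49, with adjusted permutation p-values of 0.101 and 0.031 on the 2 scales. No other member pair passed on either scale. Mt1 also correlated with the poly-A controls of the same arrays, at r = 0.51 and rho = 0.46 (permutation p = 0.00144, adjusted over 12 relations 0.0173), and at 0.42 without the 2 farthest arrays. Mt2A and Tfrc correlated with them at r = 0.31 and r = -0.31 (rho = 0.36 and -0.22, permutation p = 0.0642 and 0.0708). None of the other 11 of these relations of Mt1, Mt2A and Tfrc to array measures passed after adjustment. The part of the array measures in the correlations among genes was not tested.

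**Figure D4:**
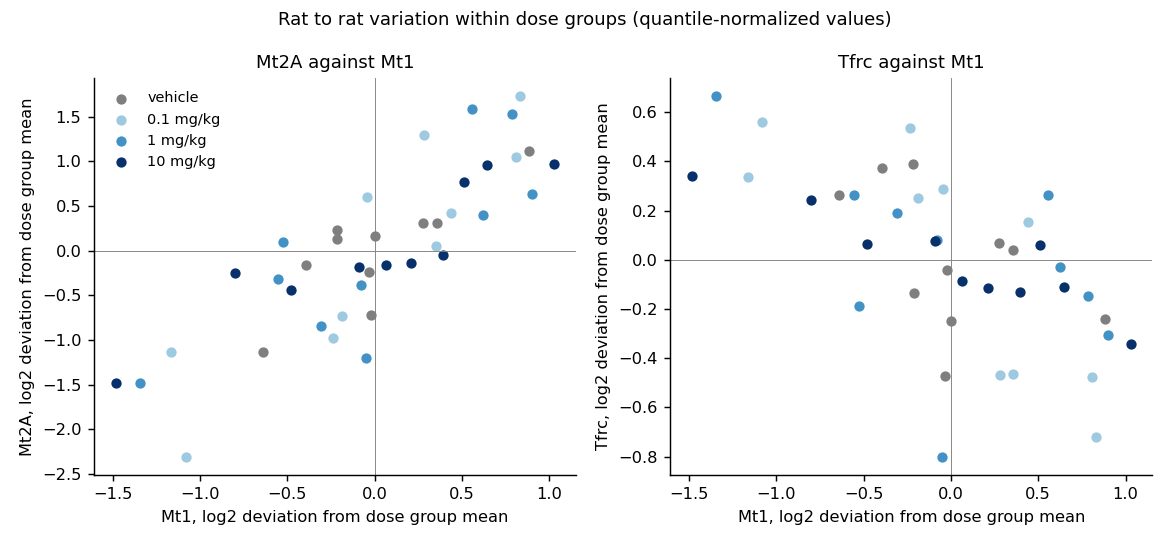
Deviation of each of 40 rats from its dose group's mean, in quantile-normalized log2 values, for Mt2A against Mt1 and for Tfrc against Mt1, with colours for dose. Mt2A follows Mt1 (r = 0.83) and Tfrc runs against it (r = -0.64) across the colours.

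The genes most like each member across rats were found among 5799 genes by the same within-group correlation, given as a description. For Mt1 they were Mt2A, Csnk2a2 and Pgap2 (r = 0.83, 0.59 and 0.59), and for Mt2A they were Mt1, Slc49a4 and Med28 (0.83, 0.61 and 0.52). For Hamp they were Adh1c, Ifgga2l1 and Trappc6a (0.53, 0.49 and 0.49), and for Tfrc Dhx29, Eml4 and Hsph1 (0.72, 0.65 and 0.65). For Slc40a1 they were Irgm, G3bp2 and Cd5l (0.59, 0.58 and 0.57), of which Cd5l is a Kupffer cell marker. For Slc39a14 they were Fn1, Sec24d and Copa (0.69, 0.67 and 0.67). Cp had the closest companions of all, Apob, Ptprd and Cfhr4 (0.93, 0.91 and 0.90), and no such value for another member was above that of Mt1 and Mt2A.

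The list counts that follow stand beside 20.4% of all genes that rose and 7.69% that fell at 10 mg/kg. Calls needed both scales, but medians and changes of list genes are deposited values unless stated, where the median over all genes was 0.26. For the genes named as the largest changes of a list, rises were smaller and falls larger after quantile normalization. Around the metallothioneins, 3 of 20 measured genes of zinc transport and sensing rose at 10 mg/kg and 3 fell, with a median log2 change of 0.25 beside 0.26 for all genes. Slc39a13 rose by 0.74 (1.67-fold, adjusted p = 1.29e-10), Slc30a4 by 0.69 and Slc30a6 by 0.60; these carry zinc between cytosol and organelles. Slc39a8, an importer of zinc and other metals at the cell surface, fell by 0.54 (adjusted p = 0.00123). Mtf1, the zinc sensor that acts on metal response elements, was named here after its values were seen; it changed by 0.31 (adjusted p = 0.0125) as deposited and by -0.01 (adjusted p = 0.971) after quantile normalization.

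Glucocorticoids and acute phase signals also act on metallothioneins. Of 9 measured glucocorticoid-responsive genes, 2 rose and 1 fell. Angptl4, which is also a PPARα target, rose by 1.94 (3.83-fold, adjusted p = 2.69e-09), and Dusp1, a phosphatase gene, fell by 1.45 (2.74-fold lower, adjusted p = 0.00062). Of 15 measured genes on the acute phase list, 0 rose and 6 fell, against 20.4% and 7.69% of all genes, with a median of -0.07. Whether each listed gene answers acute phase signals in these livers was not tested. A2m, the acute phase protease inhibitor of the rat, fell by 2.07 (4.2-fold lower, adjusted p = 3.02e-07), from 6.29 ± 0.60 to 4.22 ± 0.73. Of the other listed genes, Saa4 fell by 0.80, Itih4 by 0.43 and C3 by 0.19. Their quantile-normalized changes were -1.07, -0.65 and -0.41.

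Of 26 measured genes that regulate hepcidin, 5 rose and 5 fell at 10 mg/kg, against 20.4% and 7.69% of all genes, with a median of 0.11. Creb3l3, a liver transcription factor and a known inducer of Hamp, rose by 1.41 (2.66-fold, adjusted p = 3.55e-15), and Hjv, the BMP co-receptor hemojuvelin, rose by 0.82 (1.76-fold, adjusted p = 2.97e-08). Furin, a protease that processes prohepcidin, rose by 0.69, and Il6r, the receptor for the inflammatory inducer of hepcidin, fell by 0.37. Bmp6, the endothelial signal for iron load, was named after its values were seen: it was dim and fell from 3.13 ± 0.16 to 2.71 ± 0.16 (adjusted p = 1.99e-05).

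Of 17 measured genes of iron uptake and storage, 6 rose and 1 fell, with a median of 0.26. Tfr2, the liver's second transferrin receptor and an iron sensor, rose by 1.00 (SE 0.08, 2-fold, adjusted p = 8.54e-14), from 8.50 ± 0.25 to 9.50 ± 0.16, in the same livers in which Tfrc fell. Abcg2, a transporter that exports porphyrins, rose by 1.00, Lrp1, which takes up heme bound to hemopexin, by 0.84, and the iron chaperone gene Pcbp2 by 0.49. The gene that fell, named after its values were seen, was Cd163, the macrophage receptor for hemoglobin, which is also among the Kupffer cell markers above. Of 8 measured iron sensing genes 1 rose and 0 fell. It was Aco1, which encodes a cytosolic aconitase that turns into iron regulatory protein 1 when its cluster is lost; it rose by 1.90 (3.74-fold, adjusted p = 1.27e-22).

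Of 20 measured genes of heme synthesis and breakdown, 5 rose and 4 fell, with a median of 0.39. Alas1, the rate-limiting enzyme of heme synthesis in liver, rose by 1.04 (2.05-fold, adjusted p = 3.27e-06), and Blvrb, a biliverdin reductase, by 1.27 (2.41-fold). Slc48a1, a heme transporter, rose by 0.67, and Slc25a38, the mitochondrial glycine carrier for heme synthesis, fell by 0.78. Of 22 measured genes of iron-sulfur cluster assembly 9 rose and 0 fell, with a median of 0.44; Iba57 rose by 1.27, Ciao2b by 1.11, Nubpl by 1.01 and Bola3 by 0.77. The share that rose was 20.4% over all genes.

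Of 13 measured copper genes, 3 rose and 1 fell, with a median of 0.24. Slc31a1, the copper importer CTR1, fell by 0.62 (1.54-fold lower, adjusted p = 9.96e-06). Cox19 and Cox17, which serve copper delivery to cytochrome oxidase, rose by 0.56 and 0.55, and Ccs, the copper chaperone of superoxide dismutase, by 0.49. After quantile normalization Cox19, Cox17 and Ccs were at 0.25, 0.23 and 0.18 (adjusted p = 0.0085, 0.00808 and 0.0179). Slc31a1 was at -0.93 on that scale (adjusted p = 5.37e-10). Blood and erythroid markers, a possible source of iron and heme transcripts, were dim: the mean log2 value of 6 of them ranged from 2.28 to 2.71 in vehicle rats and from 2.63 to 3.09 at 10 mg/kg, and 3 of 6 rose. Of the other cell types, 2 of 6 sinusoidal endothelium markers fell, 1 of 8 stellate cell markers rose and 1 fell, 2 of 5 bile duct markers rose, and 0 of 6 lymphocyte markers rose or fell.

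**Figure D5:**
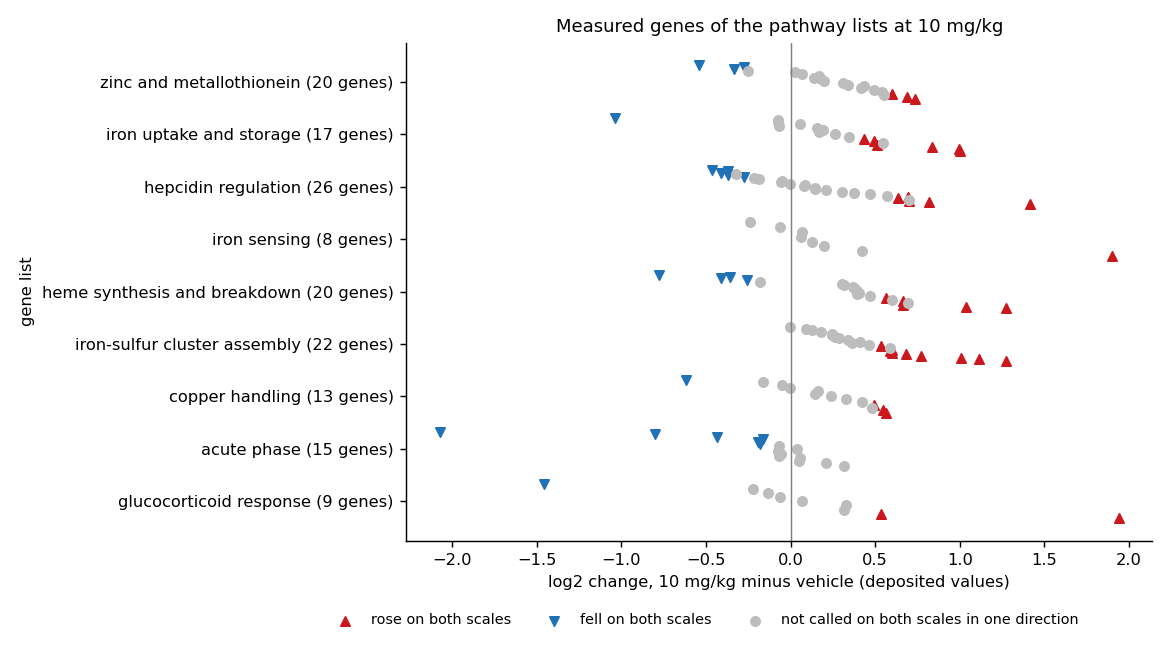
Log2 change at 10 mg/kg against vehicle, on deposited values, of each measured gene in 9 pathway lists, with upward triangles for genes that rose and downward triangles for genes that fell on both scales and grey circles for the rest. Aco1 at 1.90 stands alone among the 8 iron sensing genes, 9 of 22 iron-sulfur genes rose and 0 fell, and A2m at -2.07 is the lowest point.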

How the data were processed

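Total RNA from 40 rat livers was measured on 1 Affymetrix array each. The values are log2 signals as deposited; per the submitters' processing notes the authors used GCRMA and Partek, with versions not given in the sources used here. Of 31139 probe sets, 97 are controls, 19063 name 1 gene, 572 name several and 11498 are unnamed. limma 3.58.1 in R 4.3.3 fitted the 4 groups to the brightest probe set of each of 13438 genes, with Benjamini-Hochberg adjustment at 0.05, and to all 31042 non-control probe sets, which gave the values of second and shared probe sets. Both fits were repeated after quantile normalization. Correlations used 100000 permutations within dose groups. The number of arrays limits precision, and nothing states more than that each is a separate rat. Up to 4 called genes were named per list, those of largest change whose highest group mean was at log2 5 or more; others are marked where they appear. The members and gene lists were chosen with earlier results of these data known. On data simulated for 10 mg/kg against vehicle over 13438 genes, 32% of 1.2-fold, 84% of 1.5-fold and 100% of 2-fold changes were recovered. The simulated noise was independent between genes, with no shift of the scale, and genes were called on 1 fit. These rates therefore do not describe the rule that needs a call on both scales. Alternatives were other scalings, a poly-A covariate, a filter on dim genes, other probe set rules, array subsets and fits, a replicate block, and each array left out. Figures used Python 3.11.15 and matplotlib 3.10.9.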

Additional observations from a re-analysis of the deposited data

Results flagged for a closer look

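In 3 of 72 groups of 10 rats, 1 rat lay far from the others by Dixon's criterion; chance gives about 1 in 20. In the bright probe set of Tf and Srprb, vehicle replicate 8 was lowest at 12.93, with the next at 13.12. In the same probe set, 0.1 mg/kg replicate 8 was highest at 13.31, with the next at 13.21. In the dim probe set of Tfrc, 10 mg/kg replicate 1 was highest at 4.56, with the next at 3.55.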

How the results depend on the processing

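Mt2A at 10 mg/kg passed under every alternative tried, at -3.04 to -1.79. At 10 mg/kg the count of 2 members (2 to 3 with 1 array left out) became 5 with quantile normalization, 4 with a common median, 5 with quantile normalization and a poly-A covariate, which added Mt1 at -1.31, and 5 with quantile normalization without the 2 arrays of low upper quartile; on deposited values without these arrays it stayed at 2. At 1 mg/kg the deposited count of 1 (1 to 2) became 0 with hybridisation controls, the mean of probe sets, quantile normalization with the poly-A covariate or quantile normalization with arrays 1 to 4 of 1 mg/kg, and 2 with only the groups compared. From 0.1 to 1 mg/kg the count of 1 (1 to 1) became 0 under those first 4 settings and 2 on deposited values without the 2 low arrays, a setting chosen after seeing the data. From 1 to 10 mg/kg the count of 3 (2 to 4) became 1 with hybridisation controls and 0 with quantile normalization and arrays 1 to 4, where Mt2A was at -1.30 (adjusted p = 0.101). The dose course count of 2 became 5 with quantile normalization and 4 with a common median. The 8 probe sets called at 10 mg/kg on deposited values (8 to 9) became 13 with quantile normalization, and the 2 correlated pairs became 4 on deposited values. At 0.1 mg/kg the count was 0 throughout. Directions turned for Slc39a14 at 1 mg/kg (-0.0096 with quantile normalization, -0.0094 with it and without the 2 low arrays, -0.076 with it and the covariate, -0.14 with it and arrays 1 to 4, and -0.039 with a common median) and at 10 mg/kg (-0.33 with quantile normalization, -0.32 with it and without the low arrays, -0.43 with it and the covariate, and -0.24 with a common median). They also turned for Slc39a14 from 0.1 to 1 mg/kg (-0.034 with a common median and -0.082 with quantile normalization and arrays 1 to 4), Slc40a1 at 10 mg/kg (-0.24 with quantile normalization, with or without the low arrays) and the bright probe set of Tf and Srprb (-0.11 with quantile normalization and -0.24 with a common median). The turns named are those where the main or the alternative value passed. The main change of the bright probe set of Tf and Srprb was 0.00131. Directions turned in 60 more cases where neither passed, fits with 1 array left out not counted. The cause was not tested. Same-numbered arrays of different dose groups correlated at a mean of 0.0467, beside -0.00465 for arrays of unlike number. Among arrays of other groups, 10 of 40 correlated best with one of their own number. Each other group held 1 array of the same number among its 10, so 10 of 40 is a larger share than 1 in 10. Whether replicate numbers pair the rats was not tested. With a replicate block the member counts were 0, 1, 3, 1 and 3 in the 5 comparisons, the change being Hamp at 10 mg/kg, and 9 probe sets were called.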
